A study of Homo sapiens with 4 samples.

Results

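The genes described here encode the cytosolic sensors of double-stranded RNA and the adaptor that some of them share. The 9 members were taken by name: RIGI (DDX58 in older annotation), IFIH1, DHX58, MAVS, EIF2AK2, OAS1, OAS2, OAS3 and OASL. All 9 of the 9 were found among the 63677 genes in the count files, and all 9 passed the filter on low counts, which left 19142 genes tested. Total RNA was sequenced from H929 cells, an established human multiple myeloma line, after depletion of ribosomal RNA. The control group was transduced with a non-silencing short hairpin RNA (shRNA) and the other group with an shRNA against ILF2, with 2 libraries each. Both groups therefore carry a hairpin RNA, and cells without one were not analysed here. Neither the time after transduction nor the hairpin sequences were found in the labels, which also do not say whether 1 hairpin against ILF2 or several were used. The submitters call the replicates independent, but whether they were separate transductions is not given. The p-values therefore rest on the spread between these libraries only, with the variance of each gene estimated partly from other genes.

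Double-stranded RNA in the cytosol is a sign of viral infection, and it can also come from a cell's own transcripts. RIG-I (gene RIGI) and MDA5 (gene IFIH1) are helicases that bind it and then engage MAVS on the outer mitochondrial membrane, which passes the signal to kinases that switch on type I interferon genes. PKR (gene EIF2AK2) is a kinase that halts translation when it binds double-stranded RNA, and the OAS enzymes make short 2'-5' linked oligoadenylates, second messengers that lead to the decay of RNA in the cell. Most of these sensors are themselves induced by interferon. ILF2 is a protein of complexes that bind double-stranded RNA, and the comparison asks how the sensor genes stand when ILF2 is reduced.

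The libraries held 63459322 to 72977082 counted fragments. ILF2 itself, which checks the labels, was at 717 and 733 CPM (fragments of a gene per 1000000 of the library, with library sizes scaled by edgeR's TMM factors) with non-silencing shRNA and at 107 and 114 CPM with ILF2 shRNA. The 9 plasma cell markers examined were all tested, with 4 higher and 2 lower. Their summed level was 12612 to 12920 CPM in the non-silencing and 14814 to 14935 CPM in the ILF2 shRNA libraries. Most of this rise was in JCHAIN, at 5594 and 5937 CPM in the controls and 7682 and 7594 CPM with ILF2 shRNA. TNFRSF17, CD38 and MZB1 also rose, SDC1 and SLAMF7 fell, and IRF4, XBP1 and PRDM1 were not called. Of 21 markers of other blood and stromal cells 5 passed the low-count filter, and 3 of these were called. NCAM1, the gene of the CD56 antigen that many myelomas carry, fell from 137 and 132 CPM with non-silencing shRNA to 113 and 115 CPM with ILF2 shRNA (adjusted p = 0.0062 by edgeR). CSF1R, a myeloid gene, fell from 0.513 and 0.624 CPM to 0.330 and 0.289 CPM (adjusted p = 0.048 by edgeR). This call rested on 20 to 45 fragments per library and was close to the threshold. CD3E, a T cell gene, rose from 8.22 and 7.49 CPM to 16.1 and 17.0 CPM (adjusted p = 8.2e-14 by edgeR), while the T cell genes CD3D and CD2 had 0 to 2 fragments per library and the stromal gene COL1A2 had 0 in each. The highest summed level in any library was 1.03 CPM for the earlier B cell, 0.791 CPM for the myeloid, 0.251 CPM for the stromal and 0.173 CPM for the erythroid markers. Mitochondrial genes took 0.307% and 0.351% of fragments with non-silencing shRNA and 0.463% and 0.516% with ILF2 shRNA. The part of these shifts in the results below was not tested, and in bulk RNA fewer cells of a kind and less RNA per cell cannot be told apart.

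With ILF2 shRNA, OAS3, OASL and MAVS fell and DHX58 rose, while RIGI, IFIH1, EIF2AK2, OAS1 and OAS2 did not pass the test. Of the 9 members 1 was called higher and 3 lower, at an adjusted p under 0.05 in edgeR's quasi-likelihood test with Benjamini-Hochberg adjustment over all genes tested. Over all genes 10.2% were called higher and 10.1% lower, 20.3% in all. In 4 members both ILF2 shRNA libraries lay below both non-silencing libraries and in 2 they lay above, as in 28% and 28.5% of all genes tested. The median log2 fold change of the members was -0.02, beside 0.00 over all genes tested. Changes ran from -0.78 for OAS3 to 0.36 for DHX58. No exon of a member overlaps another gene on the same strand in the annotation used for counting. EIF2AK2 and OAS1 overlap genes on the opposite strand, which the stranded counting keeps apart.

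**Figure D1:**
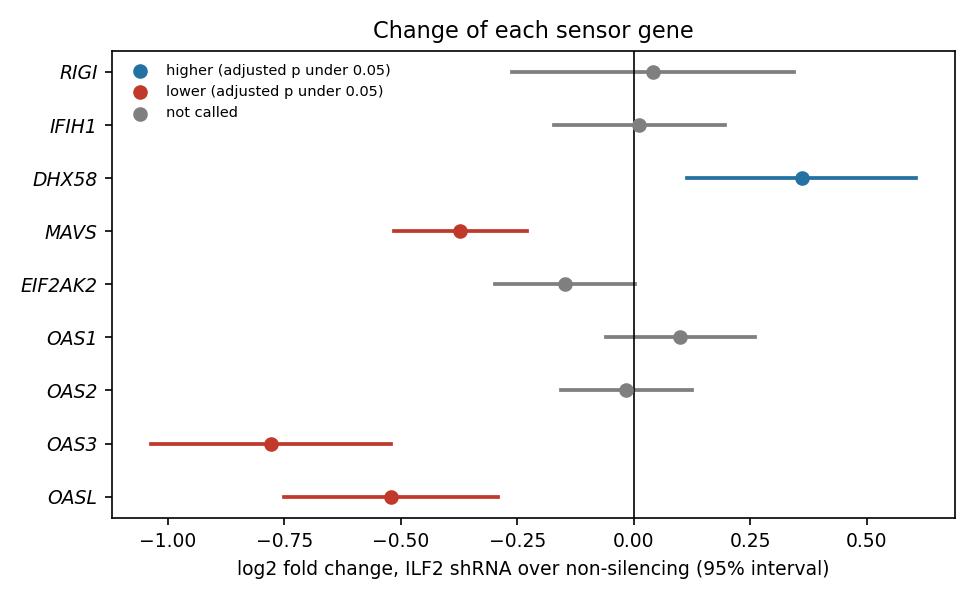
Log2 fold change of each of the 9 sensor genes, ILF2 shRNA over non-silencing shRNA (x axis), with the 95% interval of edgeR's quasi-likelihood fit over 2 libraries a group; colours mark the call at an adjusted p under 0.05. OAS3, OASL and MAVS lie to the left of 0 with their whole interval, DHX58 to the right, and the intervals of the other 5 genes include 0.

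The receptors themselves came first. RIGI (ENSG00000107201, GRCh37 chromosome 9, 32455300 to 32526322, minus strand), whose product recognises short double-stranded ends with a 5' triphosphate, was counted at 170 and 169 fragments with non-silencing shRNA and at 156 and 161 with ILF2 shRNA. On the CPM scale these were 2.29 and 2.35 against 2.45 and 2.33, so the groups overlapped. Its log2 fold change was 0.04, and the 95% interval of that difference, -0.26 to 0.34, is the widest of the 9 members and rests on the fewest fragments.

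IFIH1 (ENSG00000115267, chromosome 2, 163123589 to 163175213, minus strand) encodes MDA5, the sensor of long double-stranded RNA. It was at 12.8 and 14.5 CPM with non-silencing shRNA and at 14.5 and 12.9 CPM with ILF2 shRNA. The groups lay on top of each other, and the log2 fold change was 0.01 with an interval from -0.17 to 0.19. Its sign turned to -0.076 without non-silencing replicate 1 and to -0.071 without ILF2 shRNA replicate 1.

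DHX58 (ENSG00000108771, chromosome 17, 40253422 to 40264751, minus strand) encodes LGP2, a related helicase that lacks the signalling domains of the other receptors and modulates them. It was at 3.52 and 3.76 CPM with non-silencing shRNA and at 4.50 and 4.84 CPM with ILF2 shRNA, from 261 to 335 fragments per library. Both ILF2 shRNA libraries were above both controls. The mean moved from 3.64 ± 0.168 up to 4.67 ± 0.238 CPM (SD, n = 2), a log2 change of 0.36 with SE 0.12 and, by edgeR, adjusted p = 0.0285. The direction held under all 14 alternatives, but the call ended with non-silencing replicate 1 left out (edgeR adjusted p = 0.229), likewise for non-silencing replicate 2 (0.0866) and ILF2 shRNA replicate 2 (0.177), by DESeq2 (0.132) and with the replicate number as a block (0.0716). The log2 change itself stayed between 0.31 and 0.41 in these 14 alternatives.

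MAVS (ENSG00000088888, chromosome 20, 3827487 to 3849280, plus strand), the adaptor on which RIG-I and MDA5 converge, was counted at 4161 to 6722 fragments per library. It was at 90.7 and 89.8 CPM in the controls and at 65.3 and 74.2 CPM after ILF2 knockdown. The control libraries agreed closely, the ILF2 shRNA libraries were spread more widely, and the groups did not overlap. The mean fell from 90.3 ± 0.644 to 69.7 ± 6.27 CPM (SD, n = 2), to 77.2% of the control level. This is a log2 change of -0.37 with SE 0.07 and, by edgeR, adjusted p = 6.1e-05. It was -0.47 with ILF2 shRNA replicate 2 left out and -0.28 with replicate 1 left out. Within each library, MAVS per kb of exon was 7.59 and 6.63 times IFIH1 in the controls and 4.80 and 6.12 times with ILF2 shRNA.

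EIF2AK2 (ENSG00000055332, chromosome 2, 37326353 to 37384208, minus strand) encodes PKR, which phosphorylates the translation factor eIF2. It was at 49.4 and 50.1 CPM with non-silencing shRNA and at 47.8 and 42.1 CPM with ILF2 shRNA. Both ILF2 shRNA libraries were below both controls, by a margin that differed between them, with replicate 1 close to the controls. Its log2 fold change of -0.15 did not pass (SE 0.08, adjusted p = 0.172 by edgeR), and the interval ran from -0.30 to 0.00. It passed without ILF2 shRNA replicate 1 (log2 change -0.24, adjusted p = 0.0281 by edgeR) and was -0.06 without ILF2 shRNA replicate 2 (edgeR adjusted p = 0.732). It also passed once trends on GC content and exon length were removed (log2 change -0.13, adjusted p = 0.036 by edgeR), with that correction and the replicate number as a block (-0.13, adjusted p = 0.0383) and with a crossed replicate block (-0.15, adjusted p = 0.0217). These 3 alternatives were added after the data were seen, and each called more genes in either direction than the reported fit. With the replicate block alone EIF2AK2 did not pass (-0.15, adjusted p = 0.405 by edgeR), nor in the other 9 alternatives.

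**Figure D2:**
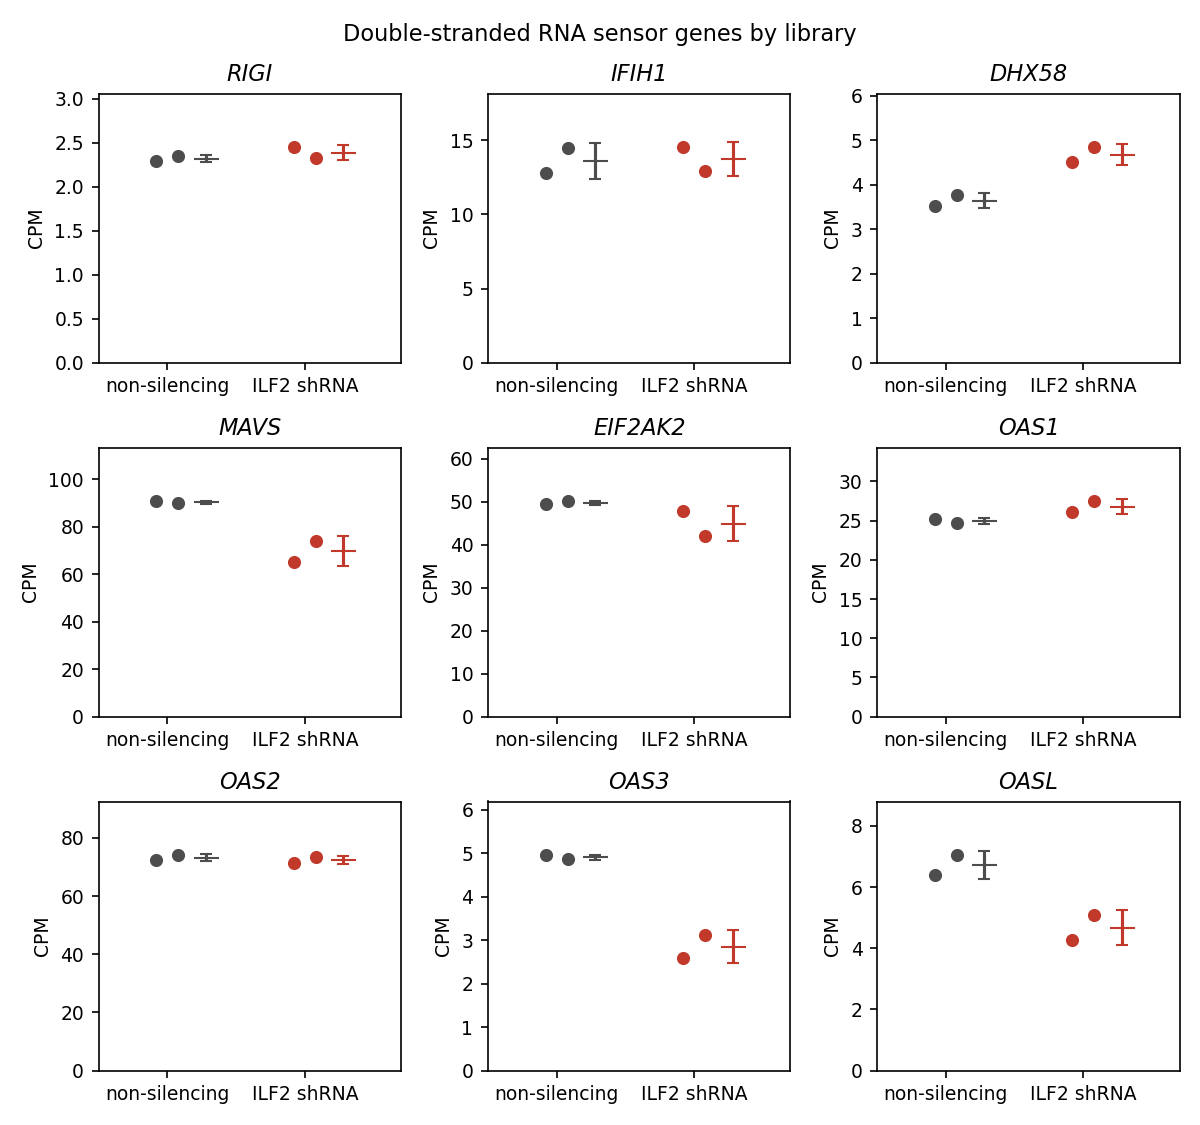
CPM of each of the 9 sensor genes in each library (y axis from 0; points: the 2 libraries of a group; bar with whiskers: mean and SD, n = 2). The 2 ILF2 shRNA points lie below both controls for MAVS, EIF2AK2, OAS3 and OASL and above them for DHX58 and OAS1, and the groups overlap for RIGI, IFIH1 and OAS2.

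In the OAS family, OAS3 and OASL fell while OAS1 and OAS2 did not pass. OAS3 (ENSG00000111331, chromosome 12, 113376157 to 113411054, plus strand), the synthetase built of 3 OAS units, was at 4.95 and 4.87 CPM with non-silencing shRNA and at 2.59 and 3.12 CPM with ILF2 shRNA. These came from 367, 351, 165 and 216 fragments, and the groups did not overlap. The mean fell from 4.91 ± 0.0588 to 2.85 ± 0.376 CPM (SD, n = 2), to 58.1% of the control level. This was the largest change among the members, a log2 fold change of -0.78 with SE 0.13 and, by edgeR, adjusted p = 4.0e-06, and it ran from -0.92 to -0.65 over the 14 alternatives.

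OASL (ENSG00000135114, chromosome 12, 121458095 to 121477045, minus strand) encodes an OAS-like protein without synthetase activity that carries ubiquitin-like domains and assists RIG-I. It was at 6.40 and 7.04 CPM in the controls and at 4.27 and 5.07 CPM with ILF2 shRNA, so both ILF2 shRNA libraries were lower. The mean moved from 6.72 ± 0.451 down to 4.67 ± 0.568 CPM (SD, n = 2), a log2 change of -0.52 with SE 0.11 and, by edgeR, adjusted p = 0.00042. The call held under all 14 alternatives, with values from -0.65 to -0.40 and adjusted p up to 0.0238.

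OAS1 (ENSG00000089127, chromosome 12, 113344582 to 113369990, plus strand) was at 25.3 and 24.7 CPM in the controls and at 26.1 and 27.5 CPM with ILF2 shRNA. The ILF2 shRNA libraries lay slightly above the controls, but the log2 fold change of 0.10 did not pass (interval -0.06 to 0.26; edgeR adjusted p = 0.431). OAS2 (ENSG00000111335, chromosome 12, 113416200 to 113449528, plus strand) was at 72.4 and 74.0 CPM against 71.4 and 73.4 CPM, which overlap. Its log2 fold change was -0.02 with an interval from -0.16 to 0.12, the narrowest of the 9, and it was 0.0068 without ILF2 shRNA replicate 1.

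OAS1, OAS3 and OAS2 lie side by side in that order on the plus strand of chromosome 12, with 6166 bases between OAS1 and OAS3 and 5145 between OAS3 and OAS2. The middle gene fell and the genes on either side did not pass. The interval of the OAS3 change, -1.04 to -0.52, does not meet that of OAS1 or OAS2. The ratio of OAS3 to OAS2 per kb of exon, taken within each library, was 0.0519 and 0.0499 in the controls and 0.0275 and 0.0323 with ILF2 shRNA. For OAS3 to OAS1 it was 0.0930 and 0.0934 against 0.0470 and 0.0538. In both ratios the groups did not overlap, and the log2 differences were -0.77 and -0.89. An exact two-sided permutation test over the libraries gave p = 0.333 for each, the smallest that 2 against 2 allows.

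Interferon induces the OAS genes, and the promoters of these neighbours were set side by side. RefSeq promoter windows of build GRCh38.p14, from 250 bases before to 50 bases after the gene start, were at hand for 6 of the 9 members: RIGI, IFIH1, MAVS, EIF2AK2, OAS1 and OAS3. They were searched on both strands for the core of the interferon-stimulated response element (GAAA, any 2 bases, GAAA) and for AANNGAAA, the shorter core bound by interferon regulatory factors. Every match to the longer motif also holds an AANNGAAA. The shorter motif was added after the sequences had been seen. The 250 bases before the start are shown for the neighbours OAS1 and OAS3, of which OAS3 fell and OAS1 did not pass, and for MAVS, which fell, with matches to AANNGAAA on either strand in capitals. The stretches are chr12:112906712-112906961 (plus strand), chr12:112938224-112938473 (plus strand) and chr20:3846584-3846833 (plus strand), in this order.
OAS1: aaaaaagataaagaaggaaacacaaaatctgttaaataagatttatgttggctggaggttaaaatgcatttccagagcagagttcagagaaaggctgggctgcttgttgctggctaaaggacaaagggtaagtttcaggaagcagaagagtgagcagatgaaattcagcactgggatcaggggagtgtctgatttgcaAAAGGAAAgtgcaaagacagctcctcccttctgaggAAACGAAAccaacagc
OAS3: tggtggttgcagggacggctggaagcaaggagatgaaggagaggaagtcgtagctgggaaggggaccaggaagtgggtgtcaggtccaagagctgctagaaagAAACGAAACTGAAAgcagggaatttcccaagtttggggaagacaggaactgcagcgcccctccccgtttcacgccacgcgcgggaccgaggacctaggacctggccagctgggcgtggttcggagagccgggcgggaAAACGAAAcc
MAVS: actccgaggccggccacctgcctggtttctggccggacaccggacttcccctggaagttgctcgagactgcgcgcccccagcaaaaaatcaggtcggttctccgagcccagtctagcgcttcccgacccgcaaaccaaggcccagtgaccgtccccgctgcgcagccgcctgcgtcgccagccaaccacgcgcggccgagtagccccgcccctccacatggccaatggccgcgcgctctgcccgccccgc

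The OAS1 stretch holds 2 matches to AANNGAAA, which begin at -52 and -16 counted from the gene start. The OAS3 stretch holds 3, which begin at -147, -141 and -10. Both contain AAACGAAA close to the start. OAS3 also has 2 matches to the longer motif, at -143 and -12, and OAS1 has 0 in its window. MAVS has 0 matches to either motif. RIGI has 3 matches to AANNGAAA and 0 to the longer motif, IFIH1 has 4 and 3, and EIF2AK2 has 1 of each, which runs across the start. Of 35116 RefSeq windows of the same length 22.8% hold AANNGAAA and 3.57% hold the longer motif. Members with a match thus include OAS3, which fell, and RIGI, IFIH1, EIF2AK2 and OAS1, which did not pass. A match describes letters in the window and is not a measured site.

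Per kb of exon, on which levels of different genes can be compared, MAVS was the most abundant member in the controls at 21.3 ± 0.152 CPM per kb (SD, n = 2). OAS2 followed at 11.7, then OAS1 at 6.39, EIF2AK2 at 4.63, IFIH1 at 3.01, OASL at 2.88, DHX58 at 0.948, OAS3 at 0.595 and RIGI at 0.444 CPM per kb. Among these neighbours in the order, the library ranges overlapped for IFIH1 and OASL and for no other pair. The receptor RIGI was thus 48.0-fold below the adaptor MAVS. With ILF2 shRNA the order was the same except at the end, where OAS3 at 0.346 CPM per kb came below RIGI at 0.457, and here the ranges of no neighbours overlapped. The lengths sum the exons of all transcripts of a gene, from 2336 bases for OASL to 10753 for EIF2AK2, so a gene with long rarely used exons reads too low on this scale.

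**Figure D3:**
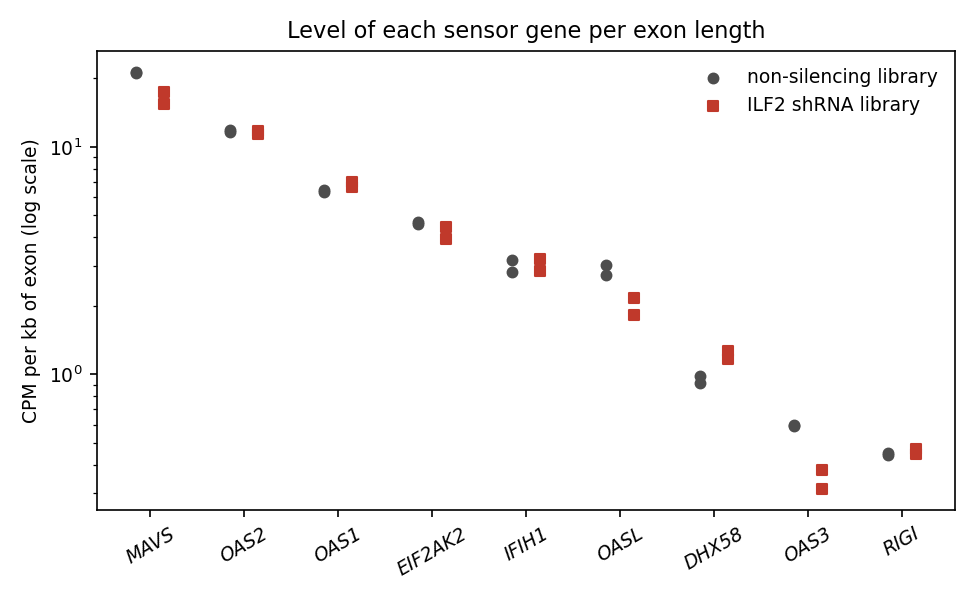
CPM per kb of summed exon length (y axis, log scale) of each sensor gene in each library, ordered by the mean in the controls (circles: non-silencing libraries; squares: ILF2 shRNA libraries). MAVS stands highest, with controls near 21.3 CPM per kb, and RIGI and OAS3 lowest, with OAS3 dropping below RIGI in the ILF2 shRNA libraries.

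The make-up of each family was also taken on the per kb scale. OAS2 held 54.1% and 54.4% of the summed OAS family level in the controls and 56.4% and 55.0% with ILF2 shRNA, and OAS1 held 30.2% and 29.1% against 33.01% and 32.99%. OASL held 12.8% and 13.9% against 9.04% and 10.2%, and OAS3 2.81% and 2.72% against 1.55% and 1.78%. Among the receptors IFIH1 held 67.5% and 69.1% in the controls and 66.2% and 62.6% with ILF2 shRNA. DHX58 held 22.0% and 21.2% against 24.2% and 27.6%, and RIGI 9.71% to 10.5% against 9.66% to 9.76%. These shares have no test of their own, since each follows from the levels above.

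The 3 members that fell have an exonic GC content of 53.0% to 57.9%, and DHX58, which rose, has 56.3%, while the other 5 have 38.6% to 48.0%. Smooth trends on GC content and exon length were also removed per library. The log2 fold change was then -0.79 for OAS3, -0.54 for OASL, -0.37 for MAVS and 0.36 for DHX58. All 4 passed (edgeR adjusted p = 1.4e-05, 0.00027, 7.7e-07 and 0.0141), and so did EIF2AK2, whose GC content is 38.6%. This fit called 2865 genes higher and 2930 lower, beside 1960 and 1925 without the correction. The part of GC content in these changes was not tested.

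**Figure D4:**
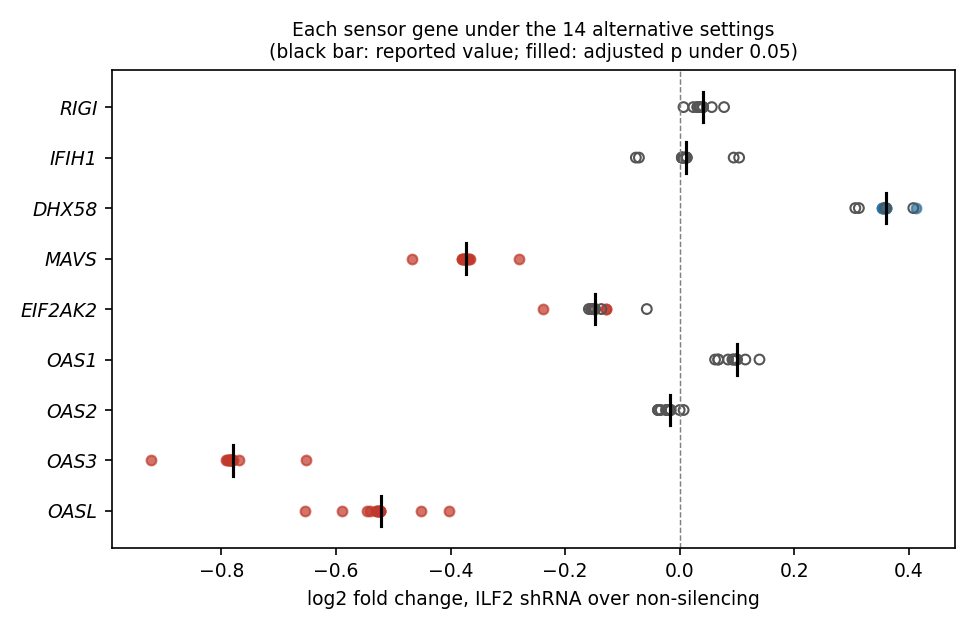
Log2 fold change (x axis) of each sensor gene under 14 alternative settings of the analysis (points; filled where the adjusted p was under 0.05) beside the reported value (black bar). All points of MAVS, OAS3 and OASL are filled and below 0, those of DHX58 are above 0 with 9 of 14 filled, and those of IFIH1 and OAS2 fall on both sides of 0.

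OAS3, the member with the smallest adjusted p, was set beside all other named genes with a mean of at least 1 log2 CPM. The 5 genes nearest to it in Euclidean distance of centred log2(CPM + 0.5) over the 4 libraries were CD276, PLAUR, ADPRH, GOLGA2P5 and CACNA2D4, at distances of 0.0452 to 0.0863. Their log2 fold changes lay between -0.83 and -0.69, and their nearness to that of OAS3 follows from picking them by this distance. With 4 libraries many genes can have a like pattern, so these names describe the libraries only.

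Other genes of the pathways were taken from 7 lists, some of whose genes stand in more than 1 list, and 136 of 155 different genes were tested. Over all genes tested 10.2% were called higher and 10.1% lower, and the counts of each list stand beside these shares. Among 22 tested cofactors and regulators of the RIG-I-like receptors 1 rose and 3 fell, with a median log2 fold change of 0.02. TRIM65, a ubiquitin ligase gene that acts on MDA5, fell from 69.8 to 47.3 CPM, a log2 fold change of -0.56 with SE 0.07 and, by edgeR, adjusted p = 1.2e-08. The ubiquitin ligase genes RNF125, whose product tags RIG-I and MDA5 for breakdown, and SMURF1 fell with log2 fold changes of -0.31 and -0.24. TKFC, whose product restrains MDA5, rose by 0.24. With either control library left out, 0 rose and 1 fell, since RNF125 (adjusted p = 0.0685 and 0.0649 by edgeR), SMURF1 (0.103 and 0.225) and TKFC (0.103 and 0.25) lost their calls. Without ILF2 shRNA replicate 2 there were 2 rises and 2 falls, with RNF125 at 0.167 and TKFC at 0.138, and SMURF1 was at 0.0526 without ILF2 shRNA replicate 1. The RIG-I ligase gene TRIM25, named after its values were seen, was at 137 and 138 CPM in the 2 groups.

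In the list on MAVS signalling, 2 of 22 tested genes rose and 2 fell, with a median of 0.02. STING1 stands in this list but is the adaptor of the DNA sensing pathway. It fell from 9.26 to 6.52 CPM (log2 change -0.50, adjusted p = 0.00013 by edgeR). The adaptor gene TRAF5 fell with a log2 change of -0.50 (adjusted p = 0.0058 by edgeR). TRAF3, the ubiquitin ligase gene that links MAVS to TBK1, rose by 0.36 (edgeR adjusted p = 0.00015), and the transcription factor gene IRF1 rose by 0.22. There were 1 rise and 1 fall without non-silencing replicate 1, where TRAF5 was at an edgeR adjusted p of 0.0595. There was 1 rise without non-silencing replicate 2. The rise of IRF1 was called only without ILF2 shRNA replicate 1 among the fits that left out a library (adjusted p from 0.0969 to 0.185 by edgeR in the others). The symbols IKBKE and IKBKG matched only copies of these genes on patch sequences of the assembly, which are listed at 0 in all 4 libraries, so no level of either gene is given. The RIG-I cofactor gene ZCCHC3 is also listed at 0 in all 4 libraries. The reason was not resolved, so no level of ZCCHC3 is given either.

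In the PKR and eIF2 list 2 of 21 genes rose and 1 fell, with a median of 0.02. TARBP2, whose product binds double-stranded RNA and restrains PKR, rose from 25.2 to 30.8 CPM, by 0.29 on the log2 scale (adjusted p = 0.0066 by edgeR). EIF2AK3, the gene of the endoplasmic reticulum kinase PERK, fell with a log2 change of -0.18 (adjusted p = 0.0437 by edgeR). That fall was lost without any library other than ILF2 shRNA replicate 1 (adjusted p from 0.0693 to 0.556 by edgeR). TARBP2 was lost when non-silencing replicate 2 (0.135) or ILF2 shRNA replicate 2 (0.199) was left out, which left 1 rise in each. Of 5 genes in the list on the fate of the oligoadenylates, 1 rose and 1 fell, with a median of -0.08. AKAP7, a phosphodiesterase gene at 0.416 CPM in the controls, rose by 1.02 on the log2 scale, and ENPP1, another phosphodiesterase gene, fell by 0.45 (adjusted p = 0.0058 and 0.0178 by edgeR). Leaving out non-silencing replicate 2 ended both calls (0.111 and 0.255), as did leaving out ILF2 shRNA replicate 1 (0.181 and 0.122).

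Interferon genes were hardly seen. Of 9 examined, 8 had 0 fragments in every library, IFNB1 among them, and the single fragment counted was of IFNE in ILF2 shRNA replicate 2. A count of 0 allows up to 3 fragments, which is 0.0405 to 0.0471 CPM depending on the library and covers counting error only. Interferon genes have close copies, and the counting tool by default skips fragments that map to several places. Among 16 tested genes of the interferon receptors and their signalling, 2 rose and 0 fell, with a median of 0.12; at an unadjusted p under 0.05 edgeR had 3 higher and 1 lower, and DESeq2 called 2 and 0. IFNGR2, a chain of the interferon gamma receptor, rose by 0.32 and the kinase gene JAK1 by 0.24 (edgeR adjusted p = 0.0063 and 0.0064). With non-silencing replicate 1 left out 0 rose (IFNGR2 at 0.0767, JAK1 at 0.302), 1 rose without non-silencing replicate 2 (IFNGR2 at 0.066), 3 rose and 1 fell without ILF2 shRNA replicate 1, and 3 rose without ILF2 shRNA replicate 2.

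Interferon-stimulated genes went both ways. Of 37 tested 11 rose and 6 fell, with a median of 0.14, where 10.2% of all genes tested were called higher and 10.1% lower. SAMD9L, an antiviral growth regulator gene, rose from 24.5 to 35.99 CPM (a log2 change of 0.55, SE 0.08, adjusted p = 6.7e-07 by edgeR) and the exonuclease gene ISG20 rose by 0.37. MX2, a restriction factor gene, fell from 10.97 to 3.26 CPM (a log2 change of -1.75, SE 0.11, adjusted p = 2.7e-19 by edgeR) and the scramblase gene PLSCR1 fell from 12.8 to 8.57 CPM. The other genes of the list that fell, named after their values were seen, were IFIT2, IFIT3, IFITM1 and MX1. Of these, IFIT2 rested on 20 to 54 fragments per library, and MX1 was close to the threshold (adjusted p = 0.0466 by edgeR). Besides SAMD9L and ISG20, those that rose, also named afterwards, were IFI27, SAMD9, PARP14, DTX3L, SP100, SP110, TRIM21, UBE2L6 and ZNFX1. Leaving out non-silencing replicate 1 gave 5 rises and 3 falls, leaving out non-silencing replicate 2 gave 6 and 4, and 4 fell when ILF2 shRNA replicate 2 was left out.

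Among 18 tested genes of other nucleic acid sensors 8 rose and 2 fell, with a median of 0.14. The endosomal receptor genes TLR7, for single-stranded RNA, and TLR3, for double-stranded RNA, rose from 4.32 to 14.2 CPM and from 1.07 to 2.14 CPM (log2 fold changes 1.71 and 1.00; edgeR adjusted p = 3.4e-20 and 2.4e-05). SIDT1, which encodes a transporter of RNA across membranes, rose by 0.45 and the DNA sensor gene AIM2 by 0.49. The falls, named after their values were seen, were those of the helicase gene DHX9 and of CGAS, the cytosolic DNA sensor gene. Leaving out a library gave 3 rises and 1 fall for non-silencing replicate 1 (AIM2 at an edgeR adjusted p of 0.093) and 4 and 0 for non-silencing replicate 2. It gave 8 and 4 for ILF2 shRNA replicate 1, and 5 and 1 for ILF2 shRNA replicate 2.

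**Figure D5:**
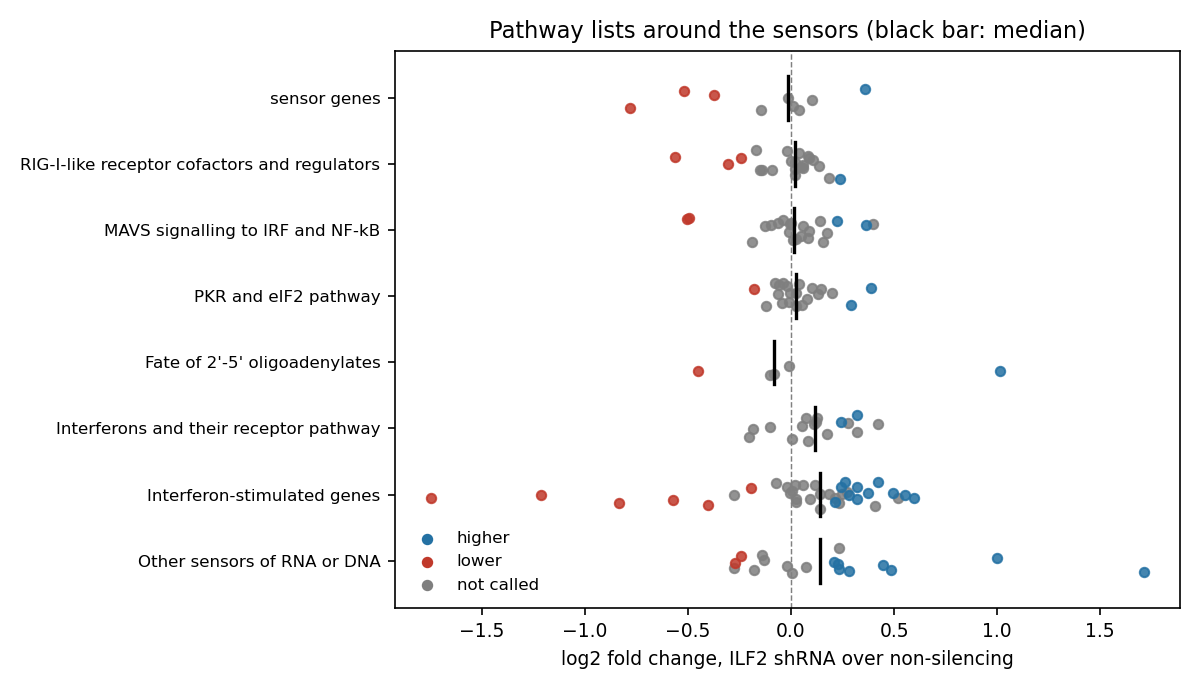
Log2 fold change (x axis) of each tested gene in the sensor set and the 7 pathway lists (points; blue higher, red lower, grey not called; vertical jitter has no meaning; black bar: median of the list). Medians lie between -0.08 and 0.14, and each list except that of the interferon receptors has called genes on both sides of 0.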

How the data were processed

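The deposited files hold raw counts, 1 value a gene for each of 4 libraries, which, per the file headers, featureCounts 1.4.6-p2 of the Subread package assigned to exons of Ensembl GRCh37 genes in paired mode with strand setting 2. The recorded command does not ask for multi-mapping fragments, which the tool skips by default. STAR 2.3.0 and SAMtools 0.1.19 are listed in the submitters' processing notes, while the design text names Tophat2. Groups come from the sample titles. Symbols were matched by Ensembl ID for 55665 of 63677 genes.

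Counts were fitted in edgeR 4.0.16 (R 4.3.3) with TMM factors (0.970 to 1.02) and filterByExpr at a minimum count of 10. Dispersions were robust (biological coefficient of variation 5.38%), group was the only term, and the quasi-likelihood F test was two-sided. Each gene has 2 residual degrees of freedom of its own. The test adds degrees of freedom from variances shared across all genes tested, and the p-values and intervals rest on this total. Calls are at an adjusted p under 0.05 and intervals at 95%. The fit was first tested on simulated data.

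The members and lists were chosen with earlier results of these data known, and counts over them are descriptions. Named are ILF2, all members and, per list, up to 4 called genes with the smallest adjusted p, and the 5 genes nearest to the member with the smallest adjusted p; some genes of the lists are not reported here. Alternatives were DESeq2 1.42.0, limma 3.58.1 (voom), DESeq2 size factors, upper-quartile factors, no filter, a filter of 1 CPM, the replicate number as a block, and each library left out. When 1 library was left out, the lone library of its group was assumed to vary like the other group. A GC and length correction (mgcv 1.9.3) alone and with the block, and a crossed pairing, were added after seeing the data.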

Additional observations from a re-analysis of the deposited data

How the results depend on the processing

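The falls of OAS3, OASL and MAVS kept their direction and their call under all 14 alternatives. Of 38 named genes, 20 were past the threshold in every alternative that tested them, and 40 values lost and 4 gained the call. With a library left out IFIH1 turned to -0.076 and -0.071 and ran up to 0.10, and OAS2 ran from -0.037 to 0.0068. Leaving out each library gave 1029 to 1899 genes higher and 1070 to 1822 lower, with 0 to 1 members higher and 3 to 4 lower. The ranges, higher and then lower, were 0 to 2 and 1 to 3 for receptor regulators, 1 to 2 and 1 to 2 for MAVS signalling, 1 to 2 and 0 to 1 for PKR, 0 to 1 and 0 to 1 for the oligoadenylate list, 0 to 3 and 0 to 1 for interferon receptors, 5 to 9 and 3 to 5 for interferon-stimulated genes, and 3 to 8 and 0 to 4 for other sensors. DESeq2 called 1420 genes higher and 1321 lower, with 0 members higher, 1 fall in MAVS signalling, and 0 rises and 0 falls in the oligoadenylate list. The filter of 1 CPM left 0 rises in the oligoadenylate list, since it removed AKAP7, and called 3 falls among other sensors. The numbers do not pair the libraries by any label, and same-numbered libraries deviated with a correlation of -0.33 over 12400 genes. With the replicate block 1291 genes were higher and 1297 lower, 0 members and 0 receptor regulators rose, 1 gene rose in each of MAVS signalling, PKR and the interferon receptors, 0 fell for PKR, and other sensors had 5 and 1. A crossed replicate block called 2871 higher and 2857 lower, with 3 and 5 receptor regulators, 4 and 4 in MAVS signalling, 4 and 2 for PKR, 4 and 1 for interferon receptors, and 5 falls among other sensors. The GC and length correction called 2865 higher and 2930 lower, with 3 and 5, 5 and 4, 4 and 2, 4 and 2 for the same lists and 6 falls among other sensors. Together with the replicate block it gave 2822 and 2867 genes, 3 and 5, 5 and 4, 3 and 2, 3 and 2, and 6 falls. The cause of these differences was not tested. No setting moved the median of all genes by 0.01 or more. Depth limits RIGI most, at 156 to 170 fragments per library.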
